A study of Mus musculus with 6 samples.

Results

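The macrophage growth factor receptor gene *Csf1r*, its ligand genes *Csf1* and *Il34*, and the leukocyte and macrophage genes *Spi1*, *Adgre1*, *Cd68*, *Laptm5*, *Ptprc* and *Nckap1l* were followed in the soleus, a slow-twitch calf muscle, of mice heterozygous for a *Mustn1* knockout allele and of wild-type mice. These 9 genes, of 16247 in the deposited normalized table, were found by their symbols, and their raw counts were joined by Ensembl identifier from a table of 51912 genes. They had been chosen with the comparison between genotypes already known, so their differences between genotypes are given as a description. Each gene passed the filter on low counts. RNA was sequenced from 3 mice per genotype at 8 weeks of age, all on a C57BL/6N background and given as male in the sample labels. HET mice carry 1 copy of the Mustn1 KO-first (tm1a) allele, present in the whole body from the germ line, in which exon 1 is spliced into a lacZ trap with a neomycin resistance cassette. WT mice were littermates without the allele, and the allele was used before any cross to Flp or Cre mice. The HET mice keep a normal *Mustn1* copy and the trap cassette stays in the locus, so the knockout is partial and the cassette and the lower *Mustn1* cannot be told apart.

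CSF1R is a receptor tyrosine kinase on the surface of monocytes and macrophages, and these cells depend on it to survive, divide and differentiate. It has a pair of ligands, CSF1, which fibroblast-like and endothelial cells release in many tissues, and IL-34, which is best known from skin and brain. Transcription of the receptor gene in these cells relies on PU.1, the product of *Spi1*, and in muscle CSF1R-dependent macrophages live in the connective tissue between fibers and clear debris after injury.

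Each mouse gave 1 library with between 26790075 and 50368796 reads on genes, and 14696 genes had enough reads for the test. The targeted gene *Mustn1* fell in HET mice by 0.96 on the log2 scale (SE 0.145; adjusted p = 0.0452, edgeR quasi-likelihood test), from 27.5 ± 3.89 to 14.2 ± 2.33 CPM (counts per 1000000 reads, with TMM factors; mean ± SD, n = 3 per genotype), without overlap. Over all genes, 21 were higher and 1 was lower in HET past an adjusted p of 0.05, and the median log2 fold change was -0.018. The markers of slow fibers summed to between 37190 and 42320 CPM in the 6 mice, as the soleus label has it. The sex in the labels did not hold up, because *Xist* had between 3858 and 9154 reads in each library and 4 Y-linked genes had between 0 and 12 reads together. Mice of the same genotype differed by more than counting error alone. The chi-square of 2 such libraries, averaged over genes, was between 15 and 42.8 where counting error gives 1, and the library of HET mouse 2 stood furthest from its group, at 38.8 and 42.8. Which mice shared a litter is not given in the sources used here.

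The upstream sequences of members are shown because PU.1, encoded by the member *Spi1*, recognizes the letters GAGGAA, and these windows place the ligand *Csf1* beside genes of leukocytes. The RefSeq promoter table of GRCm38.p6, with 250 bases before and 50 after a start site, held 4 of the 9 genes: *Csf1*, *Laptm5*, *Cd68* and *Ptprc*. *Csf1r*, *Il34*, *Spi1*, *Adgre1* and *Nckap1l* were not matched. Each window is printed 5′ to 3′ on the strand of its gene, and capitals mark GAGGAA or its reverse complement TTCCTC, and TATAAA or its reverse complement TTTATA.
Csf1, chr3:107760420-107760719, minus strand: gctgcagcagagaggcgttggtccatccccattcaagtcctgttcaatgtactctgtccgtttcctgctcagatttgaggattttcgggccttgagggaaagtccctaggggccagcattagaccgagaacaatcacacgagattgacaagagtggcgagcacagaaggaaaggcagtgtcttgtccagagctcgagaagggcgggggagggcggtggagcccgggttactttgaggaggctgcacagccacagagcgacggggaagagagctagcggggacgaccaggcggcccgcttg
Laptm5, chr4:130913066-130913365, plus strand: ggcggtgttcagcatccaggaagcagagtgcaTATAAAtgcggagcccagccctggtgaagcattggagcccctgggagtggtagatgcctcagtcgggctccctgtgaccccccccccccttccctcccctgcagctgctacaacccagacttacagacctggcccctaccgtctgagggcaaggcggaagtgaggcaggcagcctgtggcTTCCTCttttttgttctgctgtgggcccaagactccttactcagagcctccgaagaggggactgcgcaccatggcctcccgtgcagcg
Cd68, chr11:69666121-69666420, minus strand: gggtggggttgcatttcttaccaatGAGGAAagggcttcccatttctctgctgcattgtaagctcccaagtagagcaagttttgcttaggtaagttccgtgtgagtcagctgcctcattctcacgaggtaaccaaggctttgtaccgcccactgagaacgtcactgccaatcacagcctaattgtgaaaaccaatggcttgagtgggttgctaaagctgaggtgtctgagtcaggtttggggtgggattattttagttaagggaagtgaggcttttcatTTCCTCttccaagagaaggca
Ptprc, chr1:138175256-138175555, minus strand: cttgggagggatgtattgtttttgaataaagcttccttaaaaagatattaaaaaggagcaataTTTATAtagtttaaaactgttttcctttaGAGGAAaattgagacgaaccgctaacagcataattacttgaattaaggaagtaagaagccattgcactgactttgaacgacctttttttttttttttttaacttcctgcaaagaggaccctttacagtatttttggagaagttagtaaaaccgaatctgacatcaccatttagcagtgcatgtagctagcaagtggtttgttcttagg

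Neither motif was present in the *Csf1* window, on either strand. In *Laptm5*, TTCCTC lay at bases -38 to -33 from the start site, counted as +1, and TATAAA at -218 to -213. The *Cd68* window held GAGGAA at -225 to -220 and TTCCTC at 30 to 35, inside the transcribed part. In *Ptprc*, GAGGAA lay at -158 to -153 and TTTATA at -187 to -182, and the table's second *Ptprc* window held neither motif. Of 32851 promoters of the same length, 28.3% had GAGGAA on either strand and 13.6% had TATAAA, so these letters are common, and a match is not a site of binding. The longer form GAGGAAGT, found in 3.2% of promoters, was in no window of a member. The window of *Ptprc* had the lowest share of G and C at 33.7%, against 47.7% for *Cd68*, 58.7% for *Csf1*, 62.3% for *Laptm5* and a median of 52.7% over all promoters.

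*Csf1r* (ENSMUSG00000024621), the receptor, lies on the plus strand of chromosome 18 between 61105572 and 61132149 in GRCm38, and its exons in the count table cover 4885 bases. It had 475, 299 and 586 reads in HET mice 1, 2 and 3, and 101, 128 and 304 reads in WT mice 1, 2 and 3. Scaled for depth, this was 12.7, 11.1 and 13.4 CPM in HET against 3.38, 4.54 and 6.16 CPM in WT. All 3 HET mice were above all 3 WT mice, and the lowest HET mouse was closer to the other HET mice than to WT mouse 3, the highest WT mouse. The mean was 12.4 ± 1.14 CPM in HET and 4.69 ± 1.40 CPM in WT, a log2 fold change of 1.39 (SE 0.2, 95% interval 0.94 to 1.83). In bulk RNA, a change in the number of cells that express a gene and a change in its RNA per cell cannot be told apart. This holds for every gene described here.

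The exons of *Csf1r* overlap those of *Hmgxb3* on the other strand over 871 bases, or 17.8% of its exon length. The counting used strand. *Hmgxb3* had 28.7 ± 1.76 CPM in HET and 26.8 ± 0.461 CPM in WT, with a log2 fold change of 0.10 (SE 0.093), and the genotypes overlapped. *Il34* shares 75 and 22 bases with the antisense genes *Gm15895* and *Gm15894*, which had between 0 and 6 reads in any mouse.

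**Figure D1:**
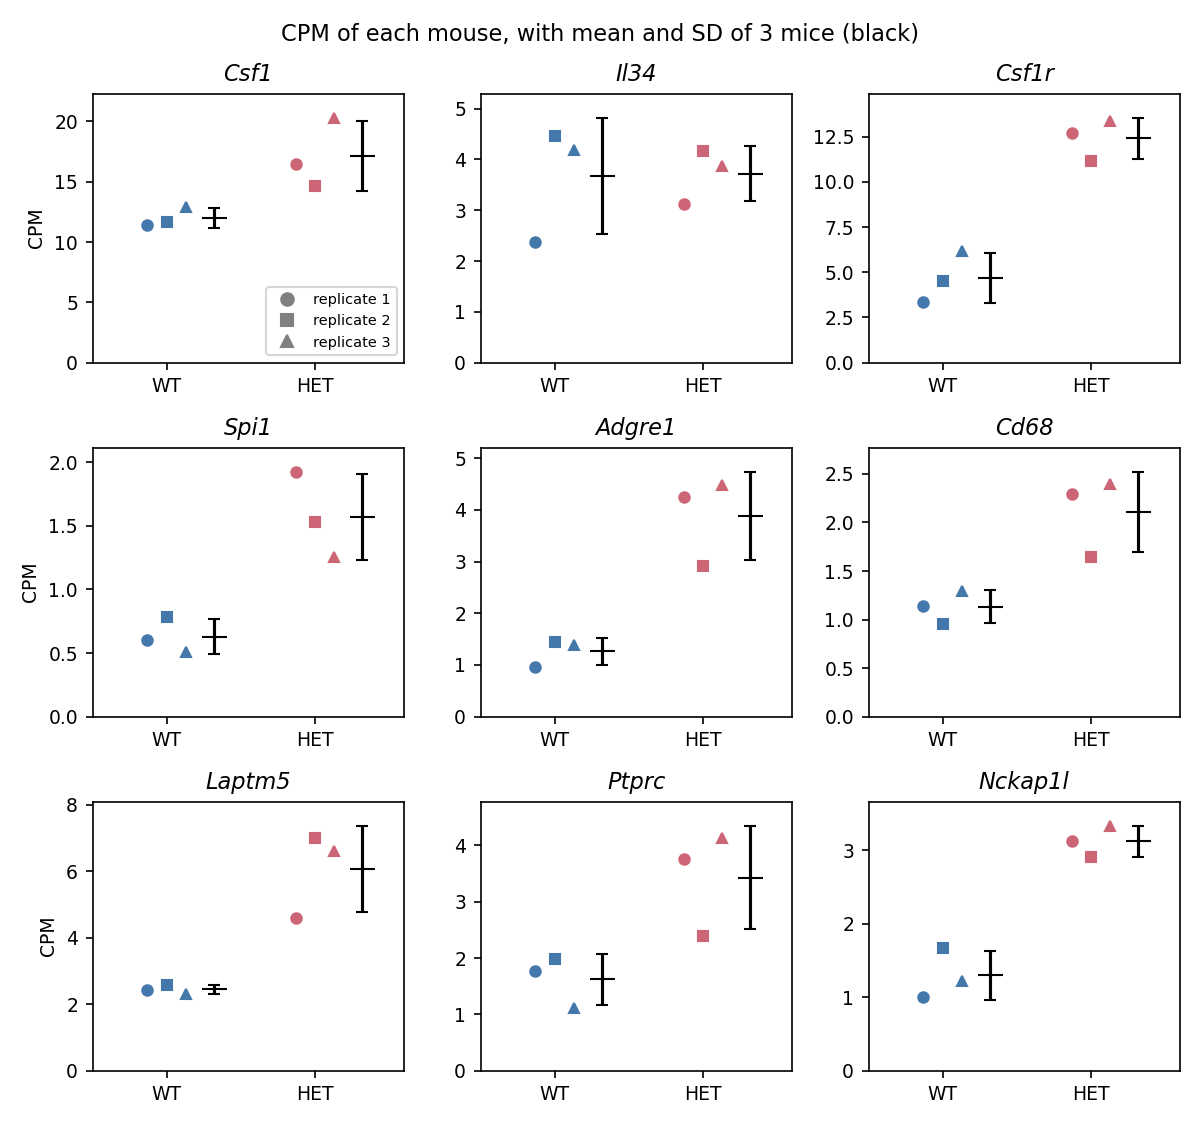
CPM of the 9 genes in each mouse (points, with 1 symbol per replicate number) by genotype, on axes that start at 0, with the mean and SD of 3 mice in black. *Il34* is the gene whose genotypes overlap, and in the other 8 panels the lowest HET point lies above the highest WT point.

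*Csf1* (ENSMUSG00000014599; chromosome 3, minus strand, 107741048 to 107760469), which encodes the main growth factor of macrophages, had 16.5, 14.6 and 20.3 CPM in HET mice 1, 2 and 3, and 11.4, 11.7 and 12.9 CPM in WT mice. These came from between 329 and 890 reads per mouse. The HET values lay above the WT values, but the gap between the closest mice, HET mouse 2 and WT mouse 3, was smaller than the spread within HET. The log2 fold change was 0.51 (SE 0.137, 95% interval 0.21 to 0.82), from 12 ± 0.813 CPM in WT to 17.1 ± 2.88 CPM in HET.

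*Il34* (ENSMUSG00000031750; chromosome 8, minus strand, 110741829 to 110805924), the other ligand, had 3.13, 4.17 and 3.87 CPM in HET mice 1, 2 and 3 and 2.38, 4.47 and 4.19 CPM in WT mice. Both genotypes held 1 mouse below the others, and the highest and the lowest value were both in WT. With 3.72 ± 0.54 CPM in HET and 3.68 ± 1.14 CPM in WT, the log2 fold change was 0.01 (SE 0.243), and its 95% interval from -0.53 to 0.55 leaves room for a difference in either direction.

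The transcription factor gene *Spi1* (ENSMUSG00000002111; chromosome 2, plus strand, 91082390 to 91115756) encodes PU.1, which directs myeloid differentiation. It had few reads, between 41 and 72 per mouse in HET and between 18 and 25 in WT, which gave 1.92, 1.53 and 1.25 CPM in HET mice 1, 2 and 3 and 0.602, 0.78 and 0.507 CPM in WT mice. Every HET value was above every WT value, at a log2 fold change of 1.33 (SE 0.309). In WT the spread between mice, with a coefficient of variation of 22.1%, was about that expected from counting reads, 21.6%.

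*Adgre1* (ENSMUSG00000004730; chromosome 17, plus strand, 57358686 to 57483529) encodes F4/80, the surface receptor by which mouse macrophages are commonly stained. It had 4.25, 2.91 and 4.49 CPM in HET mice 1, 2 and 3, and 0.97, 1.45 and 1.38 CPM in WT mice. The lowest HET mouse, number 2, still lay above all WT mice. At 3.88 ± 0.853 against 1.27 ± 0.26 CPM, *Adgre1* had the highest log2 fold change of the 9 genes, 1.61 (SE 0.247).

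*Cd68* (ENSMUSG00000018774; chromosome 11, minus strand, 69664213 to 69666153), for a glycoprotein of late endosomes and lysosomes in macrophages, had 2.3, 1.64 and 2.39 CPM in HET and 1.14, 0.958 and 1.3 CPM in WT mice. The groups were apart, with HET mouse 2 closest to WT. Its log2 fold change of 0.90 (SE 0.252) was the lowest among the receptor and leukocyte genes. *Laptm5* (ENSMUSG00000028581; chromosome 4, plus strand, 130913125 to 130936141) encodes a lysosomal membrane protein of hematopoietic cells, and it had 4.59, 7.01 and 6.61 CPM in HET and 2.44, 2.59 and 2.31 CPM in WT mice. HET mouse 1 was the low one here, while the coefficient of variation of the WT mice was 5.71%, under the 10.9% expected from counting. The log2 fold change was 1.31 (SE 0.197).

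*Ptprc* (ENSMUSG00000026395; chromosome 1, minus strand, 138062861 to 138175708) encodes CD45, the phosphatase carried by all nucleated blood cells. It had 3.77, 2.39 and 4.13 CPM in HET mice 1, 2 and 3 and 1.77, 1.99 and 1.11 CPM in WT mice. HET mouse 2 and WT mouse 2 were the closest pair of mice between genotypes for this gene, and the log2 fold change was 1.11 (SE 0.282). *Nckap1l* (ENSMUSG00000022488; chromosome 15, plus strand, 103453825 to 103498800), for HEM1, the blood cell subunit of the actin-regulating WAVE complex, had 3.13, 2.91 and 3.33 CPM in HET and 1, 1.67 and 1.22 CPM in WT. Its HET mice lay closest together of the 9 genes, with a coefficient of variation of 6.74% against 9.62% expected from counting. The log2 fold change was 1.28 (SE 0.234).

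**Figure D2:**
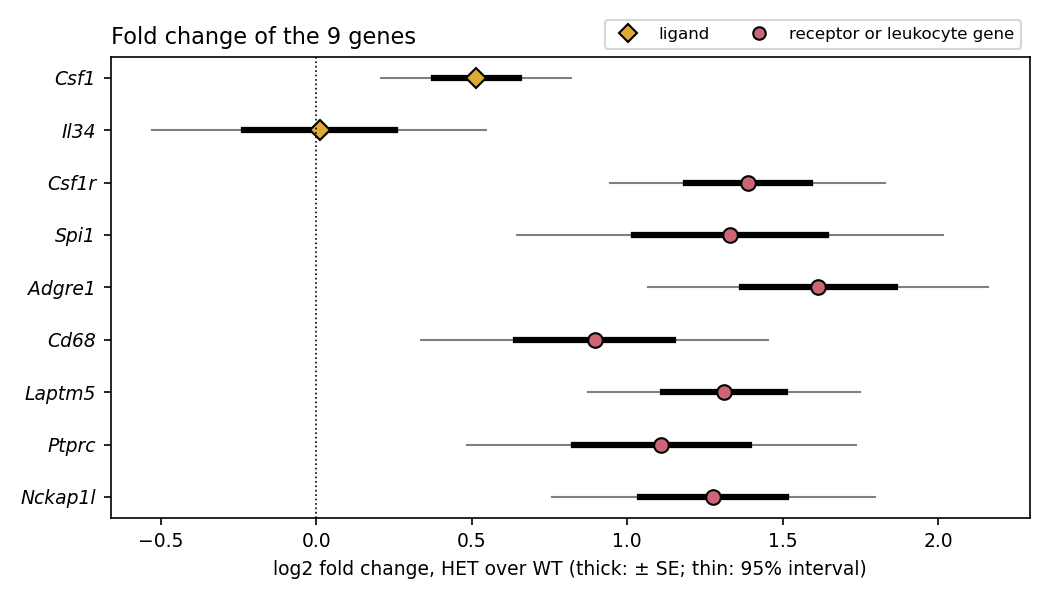
Log2 fold change of HET over WT for the 2 ligand genes (diamonds) and the 7 receptor and leukocyte genes (circles), with SE (thick) and 95% interval (thin) from the edgeR fit of 3 mice per genotype. The receptor and leukocyte genes lie between 0.90 and 1.61, *Csf1* at 0.51 and *Il34* at 0.01.

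As a group, *Csf1r* and the 6 leukocyte genes had a median log2 fold change of 1.31, and the ligands had a median of 0.26. *Csf1r*, *Adgre1* and *Laptm5* were called higher in HET, each at an adjusted p of 0.0452 (edgeR quasi-likelihood test, Benjamini-Hochberg over 14696 genes). Of all genes tested, 0.143% were called higher. The other 6 genes were not called, with adjusted p between 0.0785 for *Nckap1l* and 0.997 for *Il34*. In 8 of the 9 genes all HET mice lay above all WT mice, which was so for 7.55% of genes tested. Because the genes were selected on this comparison, nothing is read from these counts.

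The calls depended on single mice. That of *Csf1r* held in 7 of 14 alternative fits, that of *Adgre1* in 8 and that of *Laptm5* in 7. No gene at all was called without HET mouse 1, HET mouse 3, WT mouse 1 or WT mouse 2 (edgeR; between 581 and 880 genes higher at an unadjusted p under 0.05), nor was *Mustn1*, whose log2 fold change then lay between -1.07 and -0.89. *Csf1r* had a log2 fold change of 1.37 without HET mouse 1, 1.33 without HET mouse 3, 1.20 without WT mouse 1 and 1.36 without WT mouse 2, with edgeR adjusted p between 0.0752 and 0.263. Without HET mouse 2, the library furthest from its group, *Csf1r* was at 1.47, *Adgre1* at 1.79, *Laptm5* at 1.22, *Spi1* at 1.36, *Cd68* at 1.05, *Ptprc* at 1.32 and *Nckap1l* at 1.33, while *Csf1* was at 0.63 and *Il34* at -0.06, and *Adgre1* alone of the 9 stayed called. Limma-voom and a non-robust dispersion called none of the 9.

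Receptor and ligands were also set against each other within a mouse, as ratios of read counts that need no scaling for depth. They are not corrected for gene length and compare mice only. For each read on *Csf1*, *Csf1r* had 0.771, 0.761 and 0.658 reads in HET mice 1, 2 and 3, and 0.296, 0.389 and 0.477 in WT mice. Against *Il34* it had 4.06, 2.67 and 3.45 reads in HET and 1.42, 1.02 and 1.47 in WT. Neither ratio overlapped between genotypes, and the mean log2 ratio was higher in HET by 0.94 over *Csf1* and by 1.38 over *Il34*. The ratio of *Il34* to *Csf1* overlapped between genotypes, at between 0.19 and 0.285 in HET and between 0.208 and 0.383 in WT.

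Relative to *Ptprc*, which counts leukocyte RNA of any kind, the picture differed. The ratios of *Csf1r*, *Spi1*, *Adgre1*, *Cd68*, *Laptm5* and *Nckap1l* to *Ptprc* each overlapped between genotypes, with mean log2 differences between -0.19 for *Cd68* and 0.53 for *Adgre1*. These differences depended on single mice. Without WT mouse 3, that of *Csf1r* went from 0.36 to 0.83, that of *Adgre1* from 0.53 to 0.85, with no overlap left, and that of *Cd68* to 0.17. *Laptm5* went from 0.21 to -0.15 without HET mouse 2, *Nckap1l* from 0.22 to -0.03 without WT mouse 1, and *Spi1* from 0.24 to 0.00 without HET mouse 2. WT mouse 3 had the highest *Csf1r* to *Ptprc* ratio of all mice, 5.53, while the HET mice had between 3.24 and 4.67 and the other WT mice 1.91 and 2.29. Over *C1qa*, a complement gene of resident macrophages, *Csf1r* had 1.51, 1.28 and 1.6 reads per read in HET and 1.12, 1.64 and 1.89 in WT, again with overlap and a mean log2 difference of -0.05. Over *Mrc1*, the mannose receptor gene, the ratio did not overlap, at between 0.395 and 0.673 in HET and between 0.144 and 0.368 in WT.

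**Figure D3:**
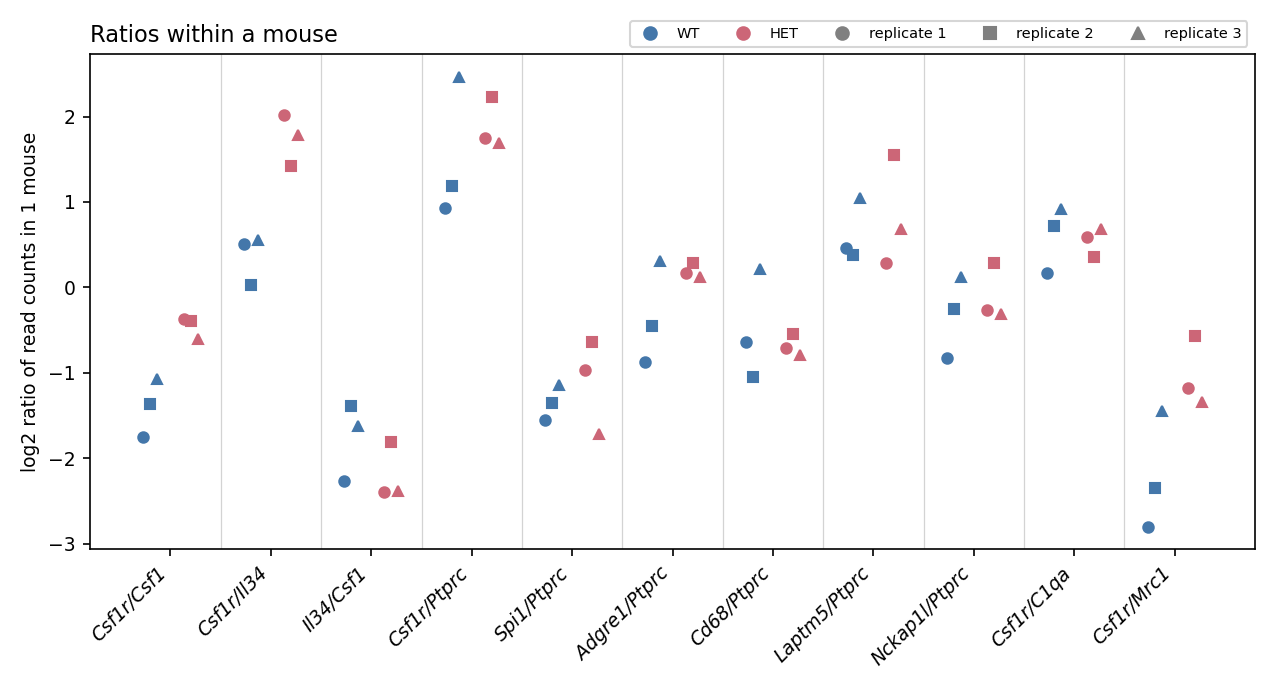
Log2 ratios of the read counts of gene pairs within each mouse (points, WT and HET side by side, with 1 symbol per replicate number). *Csf1r* over *Csf1*, *Il34* or *Mrc1* separates the genotypes, while every ratio to *Ptprc* and *Csf1r* over *C1qa* overlap in the 6 mice.

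To compare genes with each other, reads were taken per length of the merged exons of a gene and per scaled library size (RPKM). Over the 6 mice *Csf1* had the highest level of the 9 genes at 2.76 ± 0.641 RPKM, followed by *Il34* at 1.89 ± 0.407, *Csf1r* at 1.75 ± 0.894, *Cd68* at 1.29 ± 0.482, *Laptm5* at 1.124 ± 0.567 and *Adgre1* at 0.793 ± 0.474 RPKM. *Nckap1l* with 0.468 ± 0.218, *Spi1* with 0.408 ± 0.209 and *Ptprc* with 0.138 ± 0.0645 RPKM were lowest. *Csf1* thus stood near the middle of the genes tested, at percentile 50.2, and *Ptprc* at percentile 5.67. These levels were not used to choose the genes, although the SD over 6 mice includes the difference between genotypes.

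Among the 8 pairs of neighbors in this order, *Adgre1* was above *Nckap1l* by 0.68 on the log2 scale (SD 0.264) and *Spi1* above *Ptprc* by 1.54 (SD 0.395), each in 6 of 6 mice (two-sided exact permutation test of the signs, p = 0.031, the smallest p that 6 mice allow; adjusted over the 8 pairs, 0.125). *Csf1* exceeded *Il34* by 0.55 (SD 0.431) in 5 of 6 mice (exact p = 0.0625, adjusted 0.125). *Il34* and *Csf1r* changed places with genotype. In WT, *Il34* was above *Csf1r* in all 3 mice, by a mean of 0.96 on the log2 scale of RPKM, and in HET it was below in all 3 mice, by a mean of 0.42. No pair passed 0.05 after adjustment, which this design allows only if most pairs hold in every mouse. The place of *Ptprc* depends on its length, because the merged exons of its 13 transcripts cover 18313 bases while its longest coding transcript has 5074 bases. Per length of the longest coding transcript, a measure added after the data were seen, *Spi1* exceeded *Ptprc* by 0.09 and not 1.54 on the log2 scale, *Laptm5* came before *Cd68* (by 0.24) and *Nckap1l* came last.

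**Figure D4:**
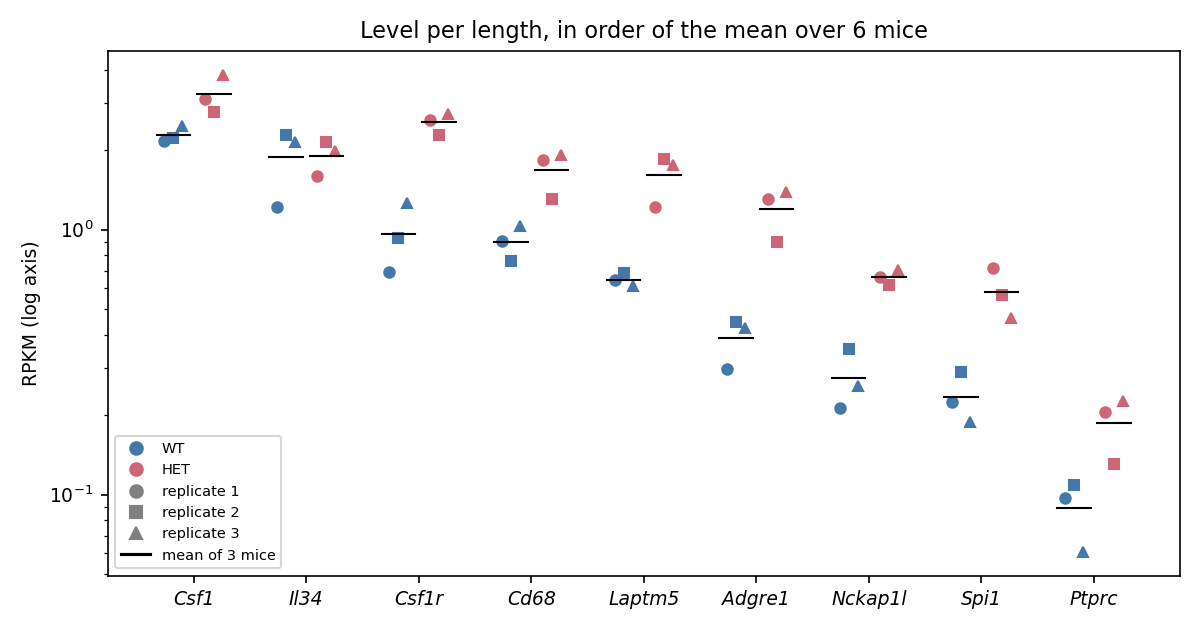
Level per length of the 9 genes in each mouse (points) on a log axis of RPKM, with the mean of each genotype as a line. The order of the means is the same in both genotypes but for *Il34* and *Csf1r*, with *Il34* above in WT and *Csf1r* above in HET.

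The genes whose profile over the 6 mice was nearest to that of *Csf1r* were found by the root mean square difference of log2 CPM after centering each gene on its own mean, among all genes tested. They were *C1qb* (0.119), a chain of complement C1q made by macrophages, the chemokine gene *Ccl9* (0.126), the matrix genes *Emilin2* (0.138) and *Vit* (0.142), and *Thbs1* (0.16), for thrombospondin-1. The median gene was 0.789 away. *Adgre1* stood at place 18, *Nckap1l* at 52, *Laptm5* at 166, *Cd68* at 187, *Spi1* at 294 and *Ptprc* at 660, while the ligands were at 585 (*Csf1*) and 3484 (*Il34*). This likeness rests in part on the difference between genotypes. The nearest to *Csf1* were *Lrrc55* (0.048), *Prkcd* (0.05), *Armcx2* (0.06), *Sdc2* (0.061) and *Tmod2* (0.063), with a median of 0.348 over all genes. *Csf1r* was at place 12817 in that order. The distance between *Csf1r* and *Csf1* was 0.509 in both orders, and it counts the size of changes as well as their shape. In both centered profiles every HET mouse lay above the gene's mean and every WT mouse below it. The places therefore do not show profiles of unlike direction.

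Downstream of the receptor, none of 27 genes of CSF1R signaling and feedback was called in HET (edgeR, adjusted p), and 9 were higher and 0 lower at an unadjusted p under 0.05. Over all 14696 genes tested, 5.76% were higher and 2.0% lower at that unadjusted p, and 45.6% had a log2 fold change above 0. The counts of each list below stand beside these shares. The lists were chosen with earlier results of these data known, so their counts are a description. In 10 of the 27 genes all HET mice lay above all WT mice, against 7.55% of genes tested. Their median log2 fold change was 0.11, against -0.018 over all genes, with 23 of 27 above 0. The highest was *Pik3ap1* (2.0, SE 0.433), for the PI3-kinase adaptor BCAP of blood cells, and the lowest *Pik3r1* (-0.23, SE 0.119), for the widely expressed regulatory subunit of PI3-kinase. The adaptor gene *Dok2* (1.56, SE 0.275), the Src-family kinase gene *Fgr* (1.86, SE 0.513), the leukocyte PI3-kinase gene *Pik3cg* (1.07, SE 0.295) and the phosphatase gene *Ptpn6* (1.04, SE 0.371) had all HET mice above all WT mice. *Pik3ap1* (3, 4 and 11 reads in WT mice) and *Fgr* (4, 3 and 3) passed the filter on low counts through HET alone. Nothing is read from the direction of these 2 genes. *Grb2* (-0.01, SE 0.089), *Cbl* (0.07, SE 0.113), *Sos1* (0.01, SE 0.107) and *Mapk3* (0.02, SE 0.106), which all cells use, overlapped between genotypes. *Socs1* (1.43, SE 0.404) and *Socs3* (0.79, SE 0.224), which dampen cytokine signaling, did not overlap. *Socs1* (11, 6 and 13 reads in WT mice) also passed the filter through the HET mice, so nothing is read from its direction. The counts of the list include *Pik3ap1*, *Fgr* and *Socs1*. The summed level of the list was between 725 and 757 CPM in HET and between 730 and 733 CPM in WT, since broadly expressed members made up most of it.

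Of 17 other myeloid transcription factors tested, 12 were above 0 and none was called, with 3 higher and 0 lower at an unadjusted p under 0.05 (edgeR). *Ikzf1*, for the lymphoid and myeloid factor Ikaros, was highest at 1.53 (SE 0.344), and *Bcl6* was lowest at -0.37 (SE 0.257). *Irf8*, a partner of PU.1, had 2.32 ± 0.263 CPM in HET and 2.06 ± 0.103 CPM in WT, and *Maf*, a factor of mature macrophages, had a log2 fold change of -0.14 (SE 0.202), both with overlap. *Tfec* had under 10 reads in every mouse.

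Other receptors for growth factors of blood cells were tested for 15 genes, of which 12 were above 0 and none was called, with 5 higher and 0 lower at an unadjusted p under 0.05 (edgeR; 5.76% and 2.0% of all genes), and 7 had all HET mice above all WT mice (7.55% of all genes). The interleukin-10 receptor gene *Il10ra* had the highest value (1.09, SE 0.333), and the interferon receptor gene *Ifngr2* the lowest (-0.13, SE 0.085). The receptor chains for GM-CSF and its relatives, *Csf2ra* (0.94, SE 0.246), *Csf2rb* (0.83, SE 0.284) and *Csf2rb2* (0.90, SE 0.264), did not overlap between genotypes, whereas *Csf3r* (0.05, SE 0.158), for the G-CSF receptor, and *Kit* (-0.07, SE 0.269), the closest relative of *Csf1r* in this list along with *Flt3*, did. Among 14 other ligands, *Csf2*, *Csf3*, *Il3* and *Il10* had under 10 reads in every mouse, and *Il3* had 0. Of the 7 tested, 5 were above 0 and none was called, with 1 higher and 0 lower at an unadjusted p under 0.05 (edgeR), from *Kitl* (-0.14, SE 0.122) to *Tgfb1* (0.44, SE 0.174). The other reported receptors of IL-34 were *Sdc1* (0.42, SE 0.266) and *Ptprz1* (0.01, SE 0.278), neither called, and *Trem2*, which was too low to test.

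The leukocyte genes were set beside relatives that other cells use. *Nckap1*, the widely expressed counterpart of *Nckap1l*, had 122.4 ± 13.2 CPM in HET and 122.8 ± 1.03 CPM in WT (log2 fold change 0.00, SE 0.093). Of 13 WAVE and Rac genes, 8 were above 0 and none was called, with 3 higher and 0 lower at an unadjusted p under 0.05 (edgeR), and the range ran from *Abi3* (-0.12, SE 0.16) to *Wasf1* (1.39, SE 0.497). Both genes of leukocyte Rac signaling in the list, *Rac2* (1.14, SE 0.293) and *Dock2* (1.29, SE 0.263), had HET above WT without overlap, while *Rac1* (-0.10, SE 0.081) overlapped. For lysosomal and adhesion receptor relatives of *Cd68*, *Laptm5* and *Adgre1*, 2 of 9 were above 0 and none was called, with 0 higher and 0 lower at an unadjusted p under 0.05 (edgeR), from *Cd36* (-0.17, SE 0.114) to *Adgre5* (0.17, SE 0.093). *Lamp1* (-0.03, SE 0.087), the common lysosomal membrane gene related to *Cd68*, and *Laptm4a* (-0.07, SE 0.079), the widely expressed relative of *Laptm5*, were in this group. Among 12 receptor phosphatases, with *Ptprc* in the list, 7 were above 0 and none was called, with 2 higher and 1 lower at an unadjusted p under 0.05 (edgeR), from *Ptprb* (-0.29, SE 0.1) of endothelium to *Ptpro* (1.51, SE 0.36). *Wasf1* (6, 6 and 22 reads in WT mice) and *Ptpro* (8, 8 and 15) passed the filter on low counts through the HET mice.

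**Figure D5:**
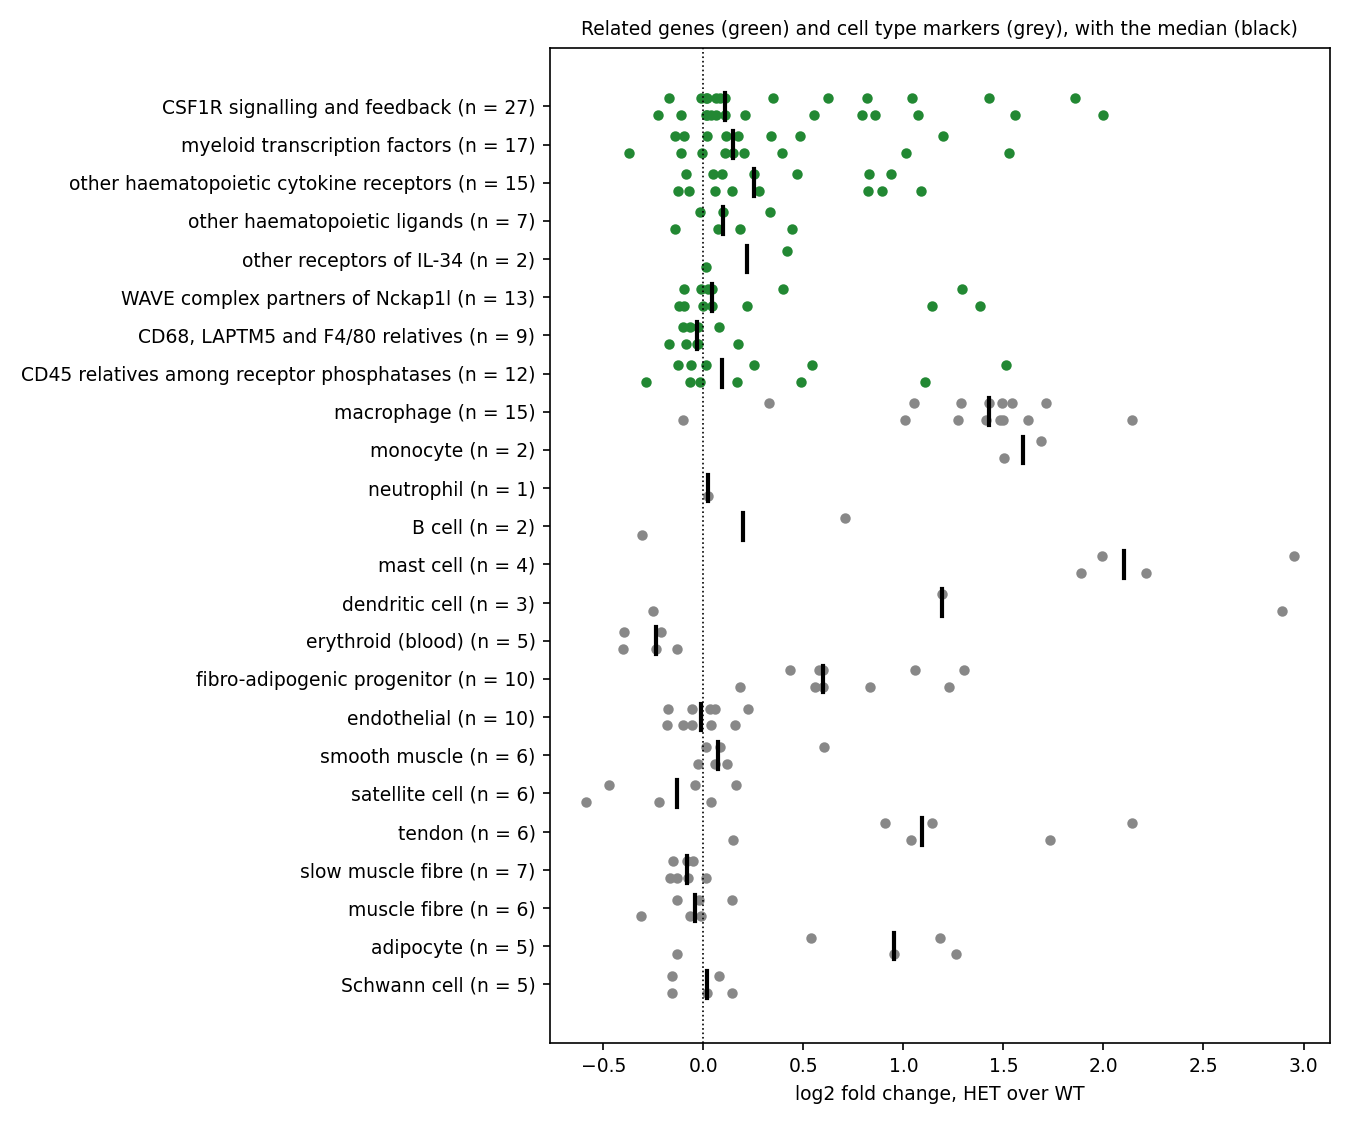
Log2 fold change of HET over WT for every tested gene of lists related to the receptor and leukocyte genes (green) and of cell type markers (grey), with the median of each list in black and the number tested beside its name. Medians of the macrophage (1.43), monocyte (1.6), mast cell (2.10), dendritic cell (1.19), tendon (1.09), adipocyte (0.95) and fibro-adipogenic progenitor (0.60) markers lie above 0, and those of endothelial (-0.01) and slow fiber (-0.08) markers lie near it. The mast cell and dendritic cell medians rest on genes that passed the filter on low counts through HET mice, and nothing is read from them.

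The name of a macrophage gene group was set beside markers of the leukocyte types that could carry it. These lists were chosen with earlier results of these data known, so they do not test the name. All 15 macrophage markers were tested, and 14 were above 0 (45.6% of all genes tested), with a median log2 fold change of 1.43. *C1qa* (1.48, SE 0.144), *C1qb* (1.43, SE 0.176), *Lyz2* (1.29, SE 0.142) and *Ctss* (1.5, SE 0.195) were called higher in HET (0.143% of all genes tested). These calls were lost when HET mouse 1, HET mouse 3, WT mouse 1 or WT mouse 2 was left out. The range was from *Mertk* (-0.10, SE 0.192), for a receptor that takes up dying cells, to *Fcgr1* (2.14, SE 0.62). *Fcgr1* (2, 9 and 7 reads in WT mice) and *Timd4* (5, 8 and 22) passed the filter on low counts through the HET mice. *Msr1* (11, 13 and 9) and *Siglec1* (10, 9 and 14) also needed HET mice to pass it. The direction of these genes was partly set by the filter, and they are among the 14 above 0 and in the median. The summed level of the 15 markers was between 92.4 and 135 CPM in HET and between 54 and 62 CPM in WT. Monocyte markers were tested for 2 of 7 genes, *F13a1* (1.69, SE 0.226), which was called, and *Ccr2* (1.5, SE 0.321), with a sum between 16.5 and 26.9 CPM in HET and between 5.52 and 7.52 CPM in WT.

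Other blood cells were sparse. No T cell marker of 10 and no NK cell marker of 6 could be tested. *Cd3e*, *Cd3g*, *Cd3d*, *Cd8a*, *Lck* and *Cd5* had under 10 reads in every mouse. T cell markers summed to between 1.27 and 1.35 CPM in HET and between 0.932 and 1.07 CPM in WT. NK cell markers summed to between 0.365 and 0.447 CPM in HET and between 0.0669 and 0.213 CPM in WT. Neither sum overlapped between genotypes, but both rest on few reads. B cell markers were near 0 for *Cd79a*, *Ms4a1* and *Cd22*, each under 10 reads in every mouse, while *Ighm* had 4.07 CPM in HET and 2.49 CPM in WT (log2 fold change 0.71, SE 0.186) and *Cd79b* -0.31 (SE 0.473). The B cell sum, mostly *Ighm*, was between 4.62 and 5.72 CPM in HET and between 3.19 and 3.91 CPM in WT, without overlap. Of 9 neutrophil markers only *Ltf* could be tested (0.02, SE 0.448). *Ly6g* had 0 reads, *Cxcr2*, *Camp* and *Ngp* had under 10, and the sum was between 0.641 and 3.24 CPM in HET and between 0.502 and 1.1 CPM in WT. Blood itself, by 5 erythroid genes, was between 71.5 and 119 CPM in HET and between 83.5 and 134 CPM in WT, with 0 of 5 above 0.

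Mast cells, which carry CD45 but need KIT and not CSF1R, had 4 of 6 markers tested, all above 0 with a median of 2.10 and none called (4 higher and 0 lower at an unadjusted p under 0.05, edgeR, against 5.76% and 2.0% of all genes), from *Tpsb2* (1.89, SE 0.345) to *Cma1* (2.95, SE 0.615). Their sum was between 4.03 and 5.4 CPM in HET and between 0.769 and 1.63 CPM in WT, and their defining receptor genes *Fcer1a* and *Ms4a2* had under 10 reads in every mouse. Each of the 4 markers tested had a WT mouse with between 0 and 10 reads and passed the filter on low counts through the HET mice. Their direction and median were thus partly set by the filter, and nothing is read from them. Dendritic cell markers *Cd209a* (2.89, SE 0.691) and *Itgax* (1.19, SE 0.468) had HET above WT, and *Zbtb46*, which endothelium also expresses, had HET below WT (-0.25, SE 0.129). None of them was called (2 higher and 0 lower at an unadjusted p under 0.05, edgeR). *Xcr1*, *Clec9a* and *Ccr7* had under 10 reads in every mouse. *Cd209a*, with 0, 2 and 9 reads in WT mice, passed the filter through HET alone. *Itgax*, with 17, 9 and 9 reads in WT mice, also needed HET mice to pass it. Nothing is read from the direction of either gene or from the median of the dendritic cell markers, which is the value of *Itgax*. The part of these cells in the levels of *Ptprc*, *Laptm5* and *Nckap1l* was not tested.

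Cells that could supply the ligands were followed as well. The 10 markers of fibro-adipogenic progenitors, the fibroblast-like cells of muscle, were all above 0 (45.6% of all genes tested) with a median of 0.60. The range was from *Ly6a* (0.18, SE 0.124) to *Dpp4* (1.30, SE 0.343), and *Pi16* (1.06, SE 0.154) was called higher (0.143% of all genes tested). The 10 markers summed to between 1505 and 2164 CPM in HET and between 791 and 1164 CPM in WT. Per read on *Pdgfra*, a defining gene of these cells, *Csf1* had between 0.596 and 0.767 reads in HET and between 0.606 and 0.955 reads in WT, and *Il34* between 0.113 and 0.207 and between 0.197 and 0.288, with overlap in both. Per read on *Pecam1*, a defining gene of endothelium, *Csf1* had between 0.0925 and 0.142 reads in HET and between 0.0703 and 0.0939 reads in WT, also with overlap, and the mean log2 difference was 0.56 where that over *Pdgfra* was -0.13. Endothelial markers summed to between 697 and 860 CPM in HET and between 740 and 910 CPM in WT, with 5 of 10 above 0, none called and 0 in either direction at an unadjusted p under 0.05 (edgeR), from *Cdh5* (-0.18) to *Cldn5* (0.22).

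Tendon markers, which a sampled muscle end can carry, were above 0 in 6 of 6 genes (45.6% of all genes tested) with a median of 1.09. They ran from *Scx* (0.15, SE 0.145) to *Chad* (2.14, SE 0.72), with none called (4 higher and 0 lower at an unadjusted p under 0.05, edgeR, against 5.76% and 2.0% of all genes). Their sum was between 335 and 604 CPM in HET and between 103 and 269 CPM in WT, so it moved with genotype as the macrophage genes did. The part of the progenitor and tendon markers in the levels of *Csf1r*, its ligands and the leukocyte genes was not tested. Adipocyte markers had a median of 0.95 with 4 of 5 above 0 and none called, from *Fabp4* (-0.13, SE 0.108) to *Adipoq* (1.26, SE 0.842), and 0 were higher or lower at an unadjusted p under 0.05 (edgeR). WT mouse 3 stood apart from the other WT mice for *Adipoq*, with 14.2 CPM against 2.44 and 2.94 CPM, while the HET mice had between 9.96 and 26.1 CPM, so the genotypes overlapped. Their part in the levels of the 9 genes was not tested either. Smooth muscle, Schwann cell, satellite cell and fiber markers had no gene called by edgeR, and among their genes 0 were higher and 1 was lower at an unadjusted p under 0.05.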

How the data were processed

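RNA of 6 soleus muscles was sequenced with 1 library per mouse (poly-A TruSeq stranded kit, single 50-base reads). The authors aligned the reads with STAR 2.7.3a to GRCm38.p6 and deposited raw counts per gene from featureCounts 2.0.3 in reverse-stranded mode. The deposited normalized signal is the raw count divided by a DESeq2 size factor per library, between 0.773 and 1.42. A deposited table of the authors' own comparison (fold changes and p-values) was not used. Merged exon lengths came with the counts, and 0 columns were left unmatched.

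The raw counts were analyzed with edgeR 4.0.16 under R 4.3.3 (DESeq2 1.42.0 and limma 3.58.1 for alternatives), and summarized with SciPy 1.17.1 and pandas 2.3.3. Genes were kept by filterByExpr (minimum count 10), scaled with TMM and tested with the robust quasi-likelihood test (genotype only, 6 mice, two-sided), with Benjamini-Hochberg adjustment over 14696 genes and a threshold of 0.05. A gene could pass the filter through the mice of 1 genotype alone. SE is the log2 fold change over the square root of F. Intervals use the t distribution of the fit. Log2 CPM had a prior count of 2. Neighboring levels were compared by exact sign permutation within mice. Symbols came from GENCODE M21. Spreads expected from counting are the mean of 1 over the square root of the reads, and cover counting error only.

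Named singly were the 9 genes, *Mustn1*, *Xist*, of each list the genes past the threshold and the ends of its range, and for markers those under 10 reads, plus the 5 genes nearest in profile to *Csf1r* and *Csf1*. Other genes of the lists were named after their values were seen. Members and lists were chosen with earlier results of these data known. Alternatives were other scalings, filters and tests, the replicate number as a block, each mouse left out and another gene length. The steps were tested on simulated data.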

Additional observations from a re-analysis of the deposited data

How the results depend on the processing

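Against 21 genes higher, 1 lower and 3 of the 9 genes called, no filter on low counts gave 386, 18 and 7, DESeq2's Wald test 218, 8 and 6, limma-voom 3, 0 and 0, and non-robust dispersion 6, 0 and 0 (873 and 298 genes at an unadjusted p under 0.05 by limma-voom, 848 and 297 with non-robust dispersion). Leaving out 1 mouse gave between 0 and 77 higher, between 0 and 6 lower and between 0 and 3 of the 9, with no call without HET mouse 1, HET mouse 3, WT mouse 1 or WT mouse 2 (581 to 880 higher and 169 to 375 lower at an unadjusted p under 0.05). With the replicate block the counts were 114, 2 and 3. The correlations of same-numbered mice were 0.203, -0.00580 and -0.0349, against between -0.137 and 0.133 for mice of unlike number. With 3 mice per genotype they cannot decide whether the numbers pair the mice, and litters are not given. *Il34* changed sign without HET mouse 2 (-0.06), HET mouse 3 (-0.02) or WT mouse 1 (-0.22), and ranged up to 0.158 without WT mouse 2. The log2 fold changes of the other 8 genes stayed above 0 in all 14 alternatives. Why the calls changed was not tested. With the length of the longest coding transcript, 4 of the 8 pairs of neighboring levels moved by more than the spread between mice. Fewer than 100 reads per mouse limit the precision, as for *Spi1* in all mice and for *Adgre1*, *Cd68*, *Ptprc* and *Nckap1l* in every WT mouse. In WT mice these had 29 to 68 (*Adgre1*), 27 to 64 (*Cd68*), 53 to 56 (*Ptprc*) and 30 to 60 reads (*Nckap1l*).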
